A study of Mus musculus with 4 samples.

Results

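The cells described here are the leukocytes of the mouse aortic arch that carried transcripts of dividing cells. They were chosen by their own counts of UMIs (unique molecular identifiers, by which copies of one captured mRNA are counted as 1). A cell was kept with 200 to 6000 detected genes and at most 15% mitochondrial UMIs, and it was taken as a leukocyte with at least 1 UMI of Ptprc, which encodes the pan-leukocyte antigen CD45, no UMI of the fibroblast gene Pdgfra and at most 2 UMIs of the smooth muscle gene Myh11. It was taken as cycling with at least 3 UMIs of Mki67 and Top2a together. This gave 343 cycling cells, of 2903 leukocytes and of 14148 kept cells. Mki67 encodes the proliferation antigen Ki-67 and Top2a encodes topoisomerase II alpha, which untangles sister chromatids. Since these genes chose the cells, their levels are given as a description only.

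Single-cell RNA sequencing (10x Chromium 3′ v3.1) was done on aortic arches with their main branches and perivascular tissue from male mice that were 3 months old at the start, in 4 groups. All mice carried floxed Nfe2l2 alleles (C57BL/6-Nfe2l2tm1.1Sred/SbisJ). Nfe2l2 encodes the antioxidant transcription factor Nrf2. Nrf2flox/flox mice had no Cre, and Nrf2Cdh5tKO mice also carried the B6;129-Tg(Cdh5-cre)1Spe/J transgene, which removes exon 5 of Nfe2l2 in endothelial cells and, per the study's text, in a proportion of hematopoietic cells. Atherosclerotic mice of both genotypes were fed a high-fat diet for 21 weeks, and normocholesterolemic mice of both genotypes were fed standard chow. Tissue of 4 mice was pooled in each normocholesterolemic group and of 3 mice in each atherosclerotic group, dissociated with enzymes and sorted for viable cells. Each group is therefore 1 library of pooled animals, no difference between groups could be tested, and the 95% intervals given below cover counting error only. The libraries held 8512 (normocholesterolemic Nrf2flox/flox), 3460 (normocholesterolemic Nrf2Cdh5tKO), 1160 (atherosclerotic Nrf2flox/flox) and 2467 (atherosclerotic Nrf2Cdh5tKO) barcodes with 98754487, 43717402, 12276546 and 24184211 UMIs. Pairs of libraries shared 2 to 10 barcodes, and no shared barcode was a cycling leukocyte in both.

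A dividing cell copies its DNA in S phase and parts the copies in mitosis, after G2. S phase genes encode the helicase that opens DNA (Mcm genes), enzymes that make nucleotides (Rrm1, Rrm2, Tyms) and polymerases. G2/M genes encode the kinases and motors of the spindle. T cell precursors divide in the thymus: those that have joined a T cell receptor beta chain proliferate, take on both coreceptors CD4 and CD8, and then leave the cycle and rearrange the alpha chain with the Rag1 and Rag2 recombinase. Tissue macrophages divide at a low rate where they reside, and granulocyte precursors divide in the marrow.

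The genes that chose the cells lie on different chromosomes of the mouse genome (GRCm38): Mki67 on chr7:135689784-135716361 and Top2a on chr11:98992943-99024189, both on the reverse strand. Many genes of G2 and mitosis share promoter elements, among them the CCAAT box, bound by NF-Y, and the cell cycle homology region with the core TTTGAA. The 150 bases before the RefSeq start of both genes (GRCm38.p6) are shown since these genes define the cells, at chr7:135716380-135716529 and chr11:99024190-99024339, read 5′ to 3′ on the reverse strand of the assembly. Capitals mark CCAAT or TTTGAA on either strand, so that ATTGG and TTCAAA are marked as well, and no marked run overlaps another.
Mki67: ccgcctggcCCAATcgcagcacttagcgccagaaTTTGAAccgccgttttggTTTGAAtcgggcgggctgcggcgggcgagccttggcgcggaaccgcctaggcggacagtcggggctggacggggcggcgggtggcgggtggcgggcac
Top2a: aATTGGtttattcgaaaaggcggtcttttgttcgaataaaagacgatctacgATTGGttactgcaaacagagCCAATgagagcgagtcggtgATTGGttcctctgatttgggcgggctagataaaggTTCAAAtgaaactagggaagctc
The Mki67 window held 1 CCAAT and 2 TTTGAA, and the Top2a window 4 CCAAT and 1 TTTGAA. Of 27025 promoters, 1 per gene, 25.3% held CCAAT and 9.24% held TTTGAA in such a window. CCAAT was found in 73.3% of the G2/M promoters matched by symbol (33 of 45, of 52 genes listed) and in 64.5% of the S phase promoters (20 of 31, of 43 listed), and TTTGAA in 28.9% and 12.9%. The windows of Pclaf and Bub1 each held 2 CCAAT and 0 TTTGAA. These are matches of letters and no record of binding.

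The label of the cells was set beside cycle genes outside the rule. Pclaf, a partner of the DNA clamp PCNA, had a UMI in 89.2% of the cycling leukocytes, the cyclin gene Ccna2 in 78.1% and the mitotic checkpoint kinase gene Bub1 in 66.5%. In the 2304 leukocytes with no UMI of Mki67 or Top2a, called other leukocytes below, the shares were 2.39%, 0.434% and 0.174%. In CPM (UMIs of a gene per 1000000 UMIs of the same cells) Pclaf was at 929, 1375, 1215 and 973 in the cycling leukocytes of the normocholesterolemic Nrf2flox/flox, normocholesterolemic Nrf2Cdh5tKO, atherosclerotic Nrf2flox/flox and atherosclerotic Nrf2Cdh5tKO libraries, the order kept throughout. Its level in the other leukocytes was 3.52, 4.18, 4.76 and 2.50 CPM, so that the ranges of the libraries lay far apart. Pclaf was thus higher in the cycling cells of each library. Since other cycle genes chose both groups of cells, this is no independent test of the label. Cycling leukocytes were also the deeper cells, with a median of 16142, 19437.5, 14067 and 18361 UMIs against 8001, 6154, 6150 and 6851 in the other leukocytes.

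The lower limit of 3 UMIs fell in a thin stretch of the distribution. Among leukocytes 189 had 1 UMI of Mki67 and Top2a, 67 had 2, 19 had 3, 49 had 4 to 9 and 275 had 10 or more. Just outside the limit, 17.9% of the cells with 2 UMIs held Pclaf and none of the 67 held Ccna2. Just inside it, 47.4% of the 19 cells with 3 UMIs held Pclaf and 31.6% held Ccna2, while of the 17 cells with 4 UMIs 41.2% held Pclaf and 0 held Ccna2 (0 to 19.5%). The median member had 33 UMIs of Mki67 and Top2a, and the medians per library were 22, 49, 31 and 30.

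Nearly all cycling cells of the tissue held Ptprc. Without the limits on Pdgfra and Myh11, 382 cells with Ptprc were cycling, of which 343 met the rule for leukocytes. Cells with at least 3 UMIs of Mki67 and Top2a and no Ptprc UMI numbered 17 of 10606 kept cells without Ptprc (0.16%), and no such cell was found among 1988 smooth muscle cells (Myh11 of at least 10 and no Ptprc), which allows a share of up to 0.151% (3 counts of the total). The 343 cycling leukocytes were 2.42% of the kept cells and held 3.90% of all UMIs of those cells, but they held 90.9% of the UMIs of Bub1, 87.5% of Ccna2 and 89.1% of Pclaf. Over the 52 G2/M genes their median share of UMIs was 70.7%, from Cbx5 with 5.22% to Bub1, and over the 43 S phase genes it was 44.4%. Over all 15344 genes with at least 50 UMIs it was 3.44%. The 11 DNA replication genes that the study chose in proinflammatory macrophages of these libraries, which are therefore not independent, had a median of 44.2%, from 4.23% for the checkpoint kinase gene Atr to 78.4% for the repair gene Brca1.

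The targeted gene, Nfe2l2, was not lower under the Nrf2Cdh5tKO label. In cycling leukocytes it was at 167, 177, 107 and 280.4 CPM and in other leukocytes at 343, 371, 396 and 449.5 CPM, higher under the label at both diets in both groups of cells. The reads come from 3′ ends and were not split by exon, so that whether exon 5 was lost in these cells was not measured. Nrf2Cdh5tKO therefore stands below for the label of a library.

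The share of cycling cells differed between the libraries. They were 147 of 1438 leukocytes (10.2%, exact Clopper-Pearson interval 8.70 to 11.9%) in the normocholesterolemic Nrf2flox/flox library, 114 of 674 (16.9%, 14.2 to 20%) in the library labelled normocholesterolemic Nrf2Cdh5tKO, 58 of 379 (15.3%, 11.8 to 19.3%) in the atherosclerotic Nrf2flox/flox library and 24 of 412 (5.83%, 3.77 to 8.54%) in the library labelled atherosclerotic Nrf2Cdh5tKO. The last was the lowest at full depth, and the interval of the atherosclerotic Nrf2flox/flox library overlapped those of both normocholesterolemic libraries. The share was thus higher under the Nrf2Cdh5tKO label in normocholesterolemic and lower in atherosclerotic aortas. Thinned to 5000 UMIs, with shallower cells left out and a minimum of 2 UMIs of Mki67 and Top2a, the shares of leukocytes were 10.3% (8.47 to 12.4%), 23.5%, 21.4% and 9.02% (5.80 to 13.2%), so that the last no longer lay apart from the first. Of all kept cells the shares at full depth were 1.86%, 3.84%, 5.69% and 1.06%. With 1 library of pooled mice per group, genotype, diet, animals and dissection cannot be told apart.

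**Figure D1:**
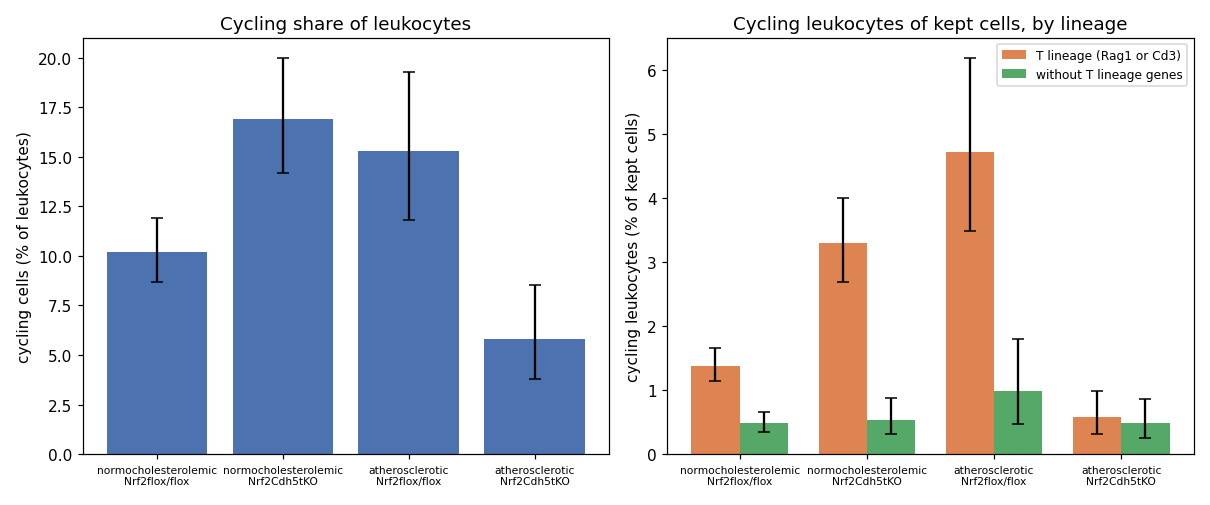
Cycling cells as a share of leukocytes (left, %) and cycling leukocytes with and without T lineage genes as a share of kept cells (right, %) in the 4 libraries, with exact 95% intervals for counting error. The cells with T lineage genes ranged from 0.574% to 4.71% of kept cells and the other cycling leukocytes from 0.482% to 0.980%.

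Most cycling leukocytes were T lineage cells, taken as cells with a UMI of Rag1 or of a Cd3 gene (Cd3d, Cd3e or Cd3g, which encode the signalling chains of the T cell receptor). They were 109 of 147 (74.1%), 98 of 114 (86.0%), 48 of 58 (82.8%) and 13 of 24 (54.2%), and 268 of 343 in all (78.1%, 73.4 to 82.4%). Rag1 had a UMI in 197 cycling cells, 57.4% of them (72, 78, 41 and 6 cells), all of which also held a Cd3 UMI. Csf1r, the receptor of the macrophage growth factor CSF-1, had a UMI in 78 cells (22.7%), and 51 of these held no T lineage gene. Cd79a, a signalling chain of the B cell receptor, had a UMI in 9 cells, of which 7 were also T lineage and 2 held none of the other genes. A further 22 cells held none of these genes, and 27 held T lineage genes and Csf1r together.

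**Figure D2:**
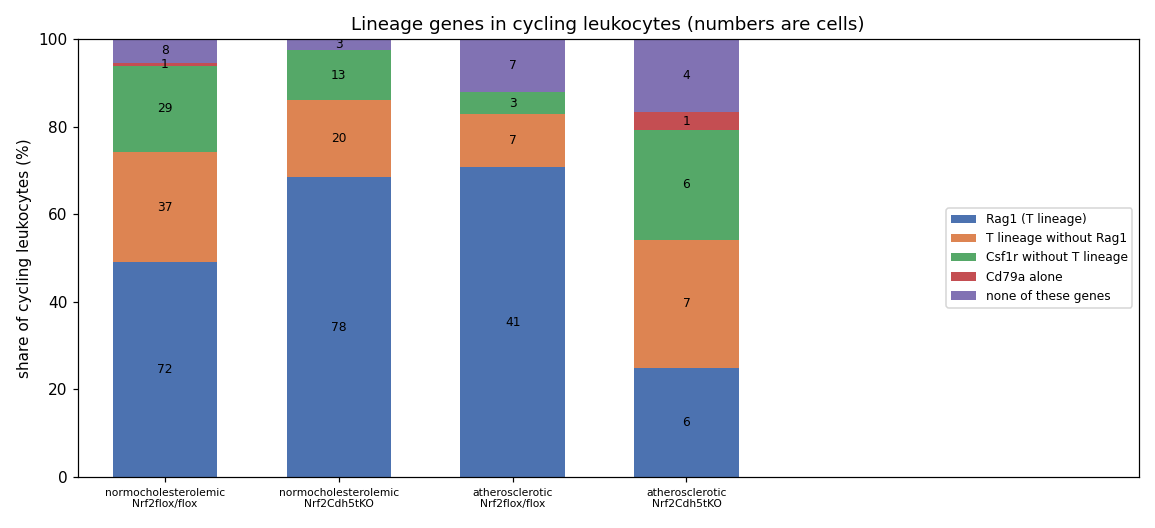
Cycling leukocytes of each library by lineage genes, in % of the library's cycling leukocytes, with the number of cells in each block. Rag1 cells made up 49.0%, 68.4%, 70.7% and 25.0% from left to right.

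The libraries differed in their cycling T lineage cells more than in the rest. Cycling T lineage cells were 1.38%, 3.30%, 4.71% and 0.574% of kept cells, while cycling leukocytes without T lineage genes were 0.482%, 0.538%, 0.980% and 0.485%, with intervals that overlapped in every pair. Leukocytes without T lineage genes were cycling in 4.06%, 4.48%, 5.03% and 3.45%, again with overlapping intervals. T lineage cells as a whole, cycling or not, were 34.8%, 47.0%, 47.5% and 22.6% of leukocytes, and Rag1 cells 12.7%, 26.6%, 23.5% and 4.13%, in both cases lowest in the library labelled atherosclerotic Nrf2Cdh5tKO. Of the Rag1 cells 72 of 183 (39.3%), 78 of 179 (43.6%), 41 of 89 (46.1%) and 6 of 17 (35.3%, 14.2 to 61.7%) were cycling, and those intervals overlapped. Thinned to 5000 UMIs, with shallower cells left out and a minimum of 2 UMIs of Mki67 and Top2a, the shares were 57.6%, 65.1%, 74.4% and 75.0% (19.4 to 99.4%), still with overlapping intervals, and the order of the libraries changed. The libraries thus differed in their share of Rag1 cells, while differences in the cycling share within Rag1 cells were not detectable at these counts. How much thymic tissue each dissection held was not tested. Genes of thymic epithelium (Epcam, Foxn1, Psmb11, Prss16) counted inside T lineage cells cannot decide this, since these cells are not epithelium. Of these 4 genes 2, 3, 3 and 3 were at 0 in the cycling T lineage cells. Their sum was 13.1, 5.90, 9.08 and 13.4 CPM, nearly all from Epcam.

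Several genes of immature T cells were found more often in the cycling than in the other T lineage cells, and others were not. Dntt, the polymerase that adds bases at receptor gene joints, had a UMI in 236 of 268 cells (88.1%), Rag1 in 73.5% and Ptcra, the surrogate alpha chain of the pre-T cell receptor, in 38.4%. In the 742 other T lineage cells the shares were 30.1%, 32.9% and 3.50%. Both coreceptors (Cd4 with Cd8a or Cd8b1) were found in 53.7% of cycling T lineage cells against 27.0% of the others, Cd8 without Cd4 in 34.3% against 21.8%, and Cd4 without Cd8 in 3 cells (1.12%) against 8.63%. The cytokine receptor gene Il7r ran the other way, in 8.21% against 36.1%, as did the cytotoxic granule gene Nkg7 with 6.34% against 19.8% and Il2ra, the interleukin 2 receptor gene of an earlier thymocyte stage and of activated T cells, with 5.97% against 12.9%. Foxp3, which marks regulatory T cells, was found in 0 of 268 cells, which limits the share of cells with a UMI to 1.12% (3 counts of the total) but not that of cells expressing it.

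Depth differed between these cells, with a median of 15710 UMIs in cycling and 5479 in other T lineage cells. When each cell was thinned to 5000 UMIs, 9 of the cycling and 336 of the other T lineage cells were too shallow and were left out. Dntt was then found in 85.7% (80.9 to 89.7%) of cycling and 14.5% (11.3 to 18.3%) of other T lineage cells, Rag1 in 52.1% and 11.8%, Ptcra in 14.7% and 1.97%, both coreceptors in 37.8% and 10.6%, and Il7r in 4.25% and 49.5%. Before thinning Rag1 was found in only 14.0% of those deeper other cells, so that leaving out the shallow cells also left out most of the other Rag1 cells. Other Rag1 cells had a median of 3672.5 UMIs and cycling Rag1 cells 13783, and the cycling cells were deeper in each library. The other T lineage cells also held more macrophages, with Csf1r in 21.2% against 3.09% of the cycling cells after thinning, and all 11 macrophage genes were more than 2-fold lower in the cycling cells, as were 20.5% of all 9564 genes with at least 50 UMIs in these cells. In smooth muscle cells, which should lack these genes, free RNA gave a thinned share of 0.208% for Rag1, 0.260% for Dntt and 0.0520% for Cd4.

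**Figure D3:**
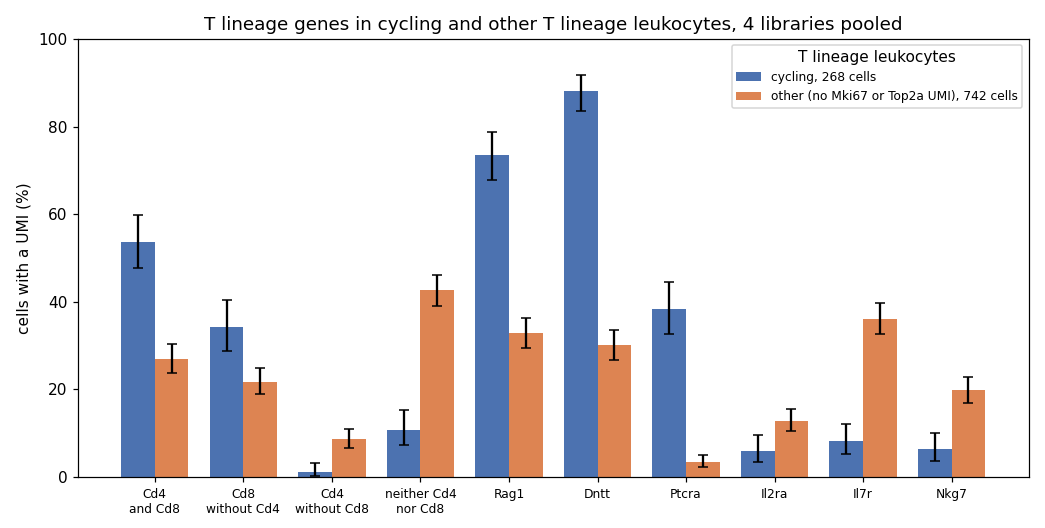
Share of T lineage leukocytes with a UMI of each gene (%), in 268 cycling and 742 other cells of the 4 libraries together, with exact 95% intervals and without thinning. Dntt, Ptcra and the pair of coreceptors were found more often in the cycling cells, and Il7r and Nkg7 less often, at a median depth of 15710 against 5479 UMIs.

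Levels per UMI gave a finer picture than shares. Rag1 was at 148, 257, 283 and 98.6 CPM in the cycling and at 151, 406, 270 and 151 CPM in the other T lineage cells, so that pooled it was no higher in the cycling cells (211 against 231 CPM) and its higher share of positive cells gives no order. Dntt was at 586, 693, 674 and 309 CPM against 154, 269, 204 and 101, and Ptcra at 34.7, 39.8, 72.6 and 98.6 CPM against 5.09, 8.32, 7.98 and 10.6. Dntt and Ptcra were thus higher in the cycling cells of each library. Cells with UMIs of both Cd4 and Cd8a were then set against each other, 142 cycling and 180 other cells with median depths of 12187 and 3969.5 UMIs. Within them the pooled log2 ratio of cycling to other cells was -1.47 (-1.61 to -1.33) for Rag1 and -1.88 (-2.10 to -1.67) for Trac, the alpha chain gene, both lower in 4 of 4 libraries. For Dntt it was -0.09 (-0.22 to 0.04), and for Ptcra 0.93 (0.21 to 1.72), higher in 2 of the 3 libraries that had UMIs on both sides. Ratios of Cd4 and Cd8a themselves are not read there, since a shallow cell passes only with a higher CPM of both. A lower CPM in the cycling cells also need not be a lower count per cell. The 142 cycling cells held 2119514 UMIs and the 180 other cells 768145.

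Among the other T cell receptor genes Trbc1 and Trbc2, the beta chain constant regions, which are near-identical so that reads may be split between them, had pooled log2 ratios of cycling to other T lineage cells of 0.95 and 1.08, while Trac had -1.55 and Cd3d, Cd3e and Cd3g lay between -0.36 and -0.33. Trbc2 was at 3677, 4178, 4078 and 2473 CPM in cycling cells and was higher there than in other T lineage cells of each library. Of the 4 recombination genes 3 were more than 2-fold higher in the cycling cells and 0 lower (median log2 ratio 1.53). Of the 13 genes of thymocyte stage and coreceptors 3 were more than 2-fold higher in the cycling cells and 2 lower, with a median log2 ratio of -0.02, from Il2ra with -2.20 (-2.59 to -1.83) to Notch3 with 1.32 (0.46 to 2.25), against 13.5% of all genes higher and 20.5% lower. Genes of mature T cells were lower in the cycling cells: 5 of 6 with at least 50 UMIs were more than 2-fold lower and none was higher, against 20.5% of all genes lower. Ccr7, the receptor that leads T cells into lymph nodes, had a log2 ratio of -4.41, S1pr1, the receptor for leaving the thymus, -4.08 and Il7r -4.10, each lower in 4 of 4 libraries. The cytotoxic and NK list had 6 of 7 genes lower, against the same 20.5%, and 1 higher, Gzma, which encodes granzyme A, with 1.81 pooled and -0.24 in the library labelled atherosclerotic Nrf2Cdh5tKO. In cycling cells Gzma had a UMI in 46 of 109, 48 of 98, 20 of 48 and 5 of 13 cells.

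The gain in cell cycle genes follows from how the cells were chosen and is given as a description. Of all 9564 genes with at least 50 UMIs over the compared T lineage cells, 13.5% were more than 2-fold higher in the cycling cells. All 43 S phase genes were (median log2 ratio 3.46), as were 50 of 52 G2/M genes (5.18), 10 of 10 origin licensing genes (3.15), 11 of 11 genes of nucleotide and DNA synthesis (4.33) and 8 of 8 mitotic kinases and checkpoint genes (5.82). Beside Top2a and Mki67, which the other cells lacked by choice, the genes with the highest ratios in the cycling T lineage cells, among those with at least 100 UMIs and with counts under 3 raised to 3, were Igha, Hmmr, Hist1h3c, Nusap1, Esco2, Pbk, Pclaf and Hist1h3b. All 1071 UMIs of Igha, an immunoglobulin heavy chain gene, lay in 1 cell. Hmmr and Nusap1 encode spindle proteins, Esco2 ties sister chromatids together and Hist1h3c and Hist1h3b encode histone H3.

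Members of the cycle machinery did not move alike. Among the cyclins, Ccne2 (S phase entry) had a log2 ratio of 5.64, Ccna2 7.47 (6.34 to 8.92) and the mitotic cyclins Ccnb1 6.78 (5.55 to 8.41) and Ccnb2 5.92 (5.28 to 6.63). The D cyclins, which link growth signals to the cycle, split: Ccnd3 had 1.02 and was higher in 4 of 4 libraries, while Ccnd1 had -2.17 and Ccnd2 -2.70. The mitotic kinase gene Cdk1 had 6.72 (5.79 to 7.86), and Cdk2, Cdk4 and Cdk6 had 2.27, 1.83 and 0.94. Of the inhibitor genes Cdkn2c was the only one of 5 past 2-fold and higher (2.13), Cdkn1b lay at -0.03 (-0.13 to 0.08) and Cdkn1a at -1.36. E2f8 and E2f7, the repressing E2F factors, had 8.73 (6.24 to 14.03) and 6.74 (4.24 to 12.06), and the pocket protein gene Rbl2 had -0.59.

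The cycling Csf1r cells without T lineage genes numbered 29, 13, 3 and 6. They were 4.45%, 4.74%, 2.36% and 2.52% of such cells, with overlapping intervals. Most had macrophage genes: Cd68 was found in 98.0%, the mannose receptor gene Mrc1 in 88.2%, Adgre1, which encodes F4/80, in 84.3% and the complement gene C1qa in 68.6%. In smooth muscle cells, which should lack these genes, the shares were 7.65%, 5.03%, 1.46% and 26.7%. Their median depth was 15896.5 UMIs and that of the cycling Csf1r cells 20544. After thinning to 5000 UMIs, C1qa was found in 60.8% (46.1 to 74.2%) of the cycling, 80.0% of the other Csf1r and 9.41% of the smooth muscle cells, and Adgre1 in 47.1% (32.9 to 61.5%), 65.2% and 0.728%. Mrc1 was found in 82.4% (69.1 to 91.6%) of the 51 cycling and in 75.8% of the 900 other Csf1r cells deep enough, and Lyve1, a marker of resident vascular macrophages, in 21.6% (11.3 to 35.3%) and 48.8% (45.5 to 52.1%). In smooth muscle cells these thinned shares were 1.87% and 3.17%. Lyve1 was at 170, 57.6, 128 and 102.5 CPM in the cycling and at 495, 695, 325 and 517 CPM in the other Csf1r cells, lower in each library. Folr2, a gene of the same resident macrophages, had a pooled log2 ratio of -1.56 (-1.77 to -1.36) and was also lower in 4 of 4 libraries.

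Of the 11 macrophage genes 0 were more than 2-fold higher and 3 were lower in the cycling Csf1r cells, with a median log2 ratio of -0.67, against 6.44% of all 9665 genes higher and 8.68% lower. The same cycle lists as in T lineage cells were higher: 31 of 36 S phase genes with at least 50 UMIs, 39 of 43 G2/M genes and 9 of 9 licensing genes. Cd209a, a lectin gene of monocyte-derived dendritic cells, was found in 23.5% of cycling and 10.0% of other Csf1r cells after thinning. Of the 7 neutrophil and progenitor genes 6 were higher, with a median log2 ratio of 3.51, but this rested on few cells. Mpo, the myeloperoxidase of granulocyte precursors, had 261 UMIs in 5.88% of the 51 cells, 259 of them in the library labelled normocholesterolemic Nrf2Cdh5tKO.

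The 22 cycling leukocytes without Rag1, Cd3, Csf1r or Cd79a (8, 3, 7 and 4 cells) included cells with granule genes. Mpo, Elane, Camp or Ngp had a UMI in 10 of them (45.5%, 24.4 to 67.8%), the stem cell factor receptor gene Kit in 7 (31.8%), Cd34 in 4 (18.2%) and Flt3 in 4 (18.2%). In smooth muscle cells the shares were 8.15%, 1.61%, 22.1% and 0.0503%, so that the share with Cd34 was no higher than this background. Genes of other cell types were found too, with Cd68 in 45.5%, Ly6c2 in 40.9%, Mrc1 in 31.8% and Nkg7 in 18.2% of the 22 cells. Their shares in smooth muscle cells were 7.65%, 1.11%, 5.03% and 0.755%. C1qa, with 27.3% against 26.7%, lay near this background. Camp, which encodes a granule protein made before neutrophils mature, was at 15010.0, 26690.0 and 45030.0 CPM in the first 3 libraries, in 2 of 8, 1 of 3 and 5 of 7 cells, and Ngp, of the same granules, was found in as many cells. They were at 0 in the 4 cells of the library labelled atherosclerotic Nrf2Cdh5tKO. In smooth muscle cells the 7 neutrophil and progenitor genes together came to 97.3 CPM, of which Cd34 gave 47.3.

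Phase genes were compared within single cells by the UMIs of 43 S phase and 52 G2/M genes, without Mki67 and Top2a. The median cell had 72.2% of these UMIs in G2/M genes, with medians of 72.7%, 71.3%, 75.4% and 63.8% per library. Other leukocytes had the same median of 72.2%, from a median of 15 phase UMIs per cell against 399 in the cycling cells, so that the ratio alone is no sign of cycling. Cells with more than 50% numbered 276 of 343 (80.5%) and 1998 of 2287 other leukocytes (87.4%), and 105 lay between 40% and 60%, close to that limit. Of the cycling Rag1 cells 85.3% (79.5 to 89.9%) were above 50%, with a median of 75.0%, and of the cycling T lineage cells without Rag1 66.2% (54.0 to 77.0%), with a median of 58.3%. The share above 50% had this order in 3 of 4 libraries, and in the library labelled atherosclerotic Nrf2Cdh5tKO 4 of 6 and 6 of 7 cells were above 50%. Csf1r cells had a median of 76.6%.

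**Figure D4:**
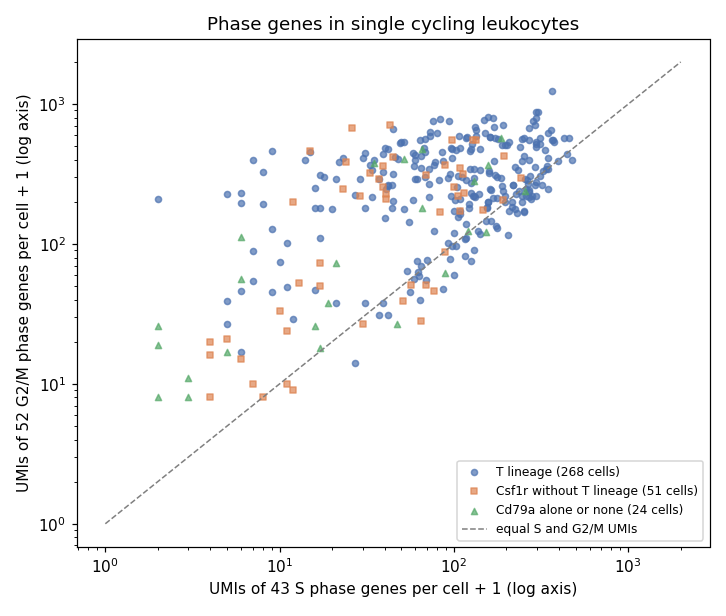
UMIs of 43 S phase genes and of 52 G2/M genes, plus 1 and on log axes, in each of the 343 cycling leukocytes, by lineage. Cells above the dashed line had more G2/M than S phase UMIs, as 276 of them did.

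Within the cycling T lineage cells, recombinase and coreceptor levels differed with this ratio, in part only when cells close to 50% were included. Rag1 was at 169, 311, 354 and 110 CPM in the cells with more than 50% G2/M UMIs (89, 77, 39 and 10 cells) and at 63.6, 81.7, 45.1 and 73.4 CPM in the rest (20, 21, 9 and 3 cells). It was higher in the cells above 50% in each library, but the library labelled atherosclerotic Nrf2Cdh5tKO had 17 against 5 UMIs, with an interval of the log2 ratio of -0.92 to 2.37. Pooled, the log2 ratio was 1.86 (1.53 to 2.22) for Rag1, 2.40 (1.24 to 3.88) for Rag2, 1.64 (1.43 to 1.86) for Cd8a, 0.97 (0.82 to 1.12) for Cd8b1, 1.55 (1.07 to 2.06) for Cd4 and 1.27 (0.88 to 1.68) for Trac, and in the library labelled atherosclerotic Nrf2Cdh5tKO Rag2 and Cd4 had -0.19 and -0.02. Ptcra had -0.05 (-0.50 to 0.43), the transcription factor gene Tcf7 0.12 (0.01 to 0.22) and Dntt 0.41 (0.28 to 0.54), and Dntt ran the other way in the library labelled atherosclerotic Nrf2Cdh5tKO (-1.48, -2.21 to -0.76). Il2ra had -1.81 (-2.51 to -1.10), from 36 UMIs on each side. The histone genes Hist1h1b, Hist1h2ap and Hist1h3c, whose mRNA accumulates during S phase and which neither list holds, were higher above 50%, with 1.13 (1.04 to 1.22), 1.21 (1.13 to 1.30) and 1.74 (1.55 to 1.93), so that the ratio is not read here as the phase of a cell. Cells above 50% were shallower, with a median of 14804 against 22676 UMIs. Without the cells between 40% and 60% only 6 cells were left on the lower side, the same histone genes had 3.05, 3.66 and 3.06, and the log2 ratio was 1.61 (0.48 to 3.06) for Rag1 and 1.79 (0.95 to 2.80) for Cd8a. The intervals then held 0 for Rag2 with 1.14 (-1.37 to 6.46), for Cd4 with 0.93 (-0.44 to 2.82), for Cd8b1 with 0.44 (-0.01 to 0.94), for Trac with -0.22 (-1.11 to 0.85), for Dntt with 0.45 (-0.06 to 1.01), for Tcf7 with 0.35 (-0.08 to 0.81) and for Rag1 in the normocholesterolemic Nrf2flox/flox library with 0.76 (-0.48 to 2.40). They also held 0 for Cd3d, Cd3e, Cd3g and Myb, which were higher above 50% with all cells. Il2ra then had 20 UMIs above and 0 below, so that its lower level above 50% rested on cells close to the limit.

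**Figure D5:**
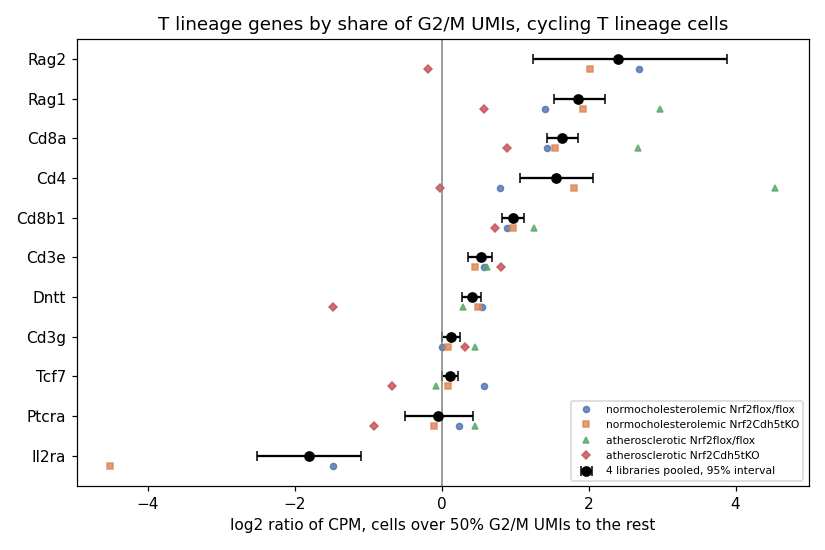
Log2 ratio of CPM in cycling T lineage cells with more than 50% G2/M UMIs (215 cells) to the other 53, for 11 T lineage genes. Black points are the 4 libraries together with 95% counting intervals and coloured points are single libraries, left out where either side had no UMI. Rag2, Rag1, Cd8a and Cd4 lay highest and Il2ra lowest.

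Levels in cycling T lineage cells were then compared between libraries. Nfe2l2 was at 93.1, 161, 77.8 and 125 CPM. It was higher under the Nrf2Cdh5tKO label in normocholesterolemic aortas, with a log2 ratio of 0.79 (0.53 to 1.06), and had 0.69 (-0.01 to 1.36) in atherosclerotic aortas, so that no loss of the transcript was seen. Of its targets, the cystine carrier gene Slc7a11 was at 57.4, 74.7, 135 and 26.9 CPM, lowest in the library labelled atherosclerotic Nrf2Cdh5tKO, where 6 UMIs stood against 104 in atherosclerotic Nrf2flox/flox cells (log2 ratio -2.33, -3.81 to -1.16). Txnrd1, thioredoxin reductase, had -1.05 (-2.06 to -0.17) in that pair and -0.52 (-0.82 to -0.22) in the normocholesterolemic pair. Gclm had -0.53 (-2.09 to 0.75) and 0.17 (-0.28 to 0.62), and Nqo1 had 0 or 1 UMI per library. Hmox1, heme oxygenase, which macrophages also express, was at 39.3, 5.41, 5.19 and 0 CPM. In the normocholesterolemic Nrf2flox/flox library its 78 UMIs lay in 20 of 109 cells, 30 of them in 1 cell, so that its higher level there rested on few cells.

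A gene was counted as higher or lower with a difference of at least 2-fold and an interval that left out 0, among genes with at least 50 UMIs in both libraries together. For the Nrf2Cdh5tKO label against Nrf2flox/flox in normocholesterolemic aortas (98 against 109 cells) 95 of 6784 genes were higher (1.40%) and 203 lower (2.99%). In atherosclerotic aortas (13 against 48 cells) 40 of 2979 were higher (1.34%) and 106 lower (3.56%). For atherosclerotic against normocholesterolemic aortas 127 of 5760 were higher (2.20%) and 293 lower (5.09%) in Nrf2flox/flox (48 against 109 cells), and 92 of 5227 higher (1.76%) and 195 lower (3.73%) under the Nrf2Cdh5tKO label (13 against 98 cells). Without the cells that also held Csf1r or Cd79a, 113 genes in place of 203 were lower in the first comparison and 174 in place of 293 in the third. The comparisons share libraries, and cells of a pool are not replicates.

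Of the S phase list 1 of 43, 0 of 38, 1 of 42 and 0 of 42 counted genes were higher in the 4 comparisons, in that order, and 0 were lower. Of all counted genes 1.40%, 1.34%, 2.20% and 1.76% were higher and 2.99%, 3.56%, 5.09% and 3.73% lower. Of the G2/M list it was 2 of 51 higher (1.40% of all counted genes), 1 of 43 lower (3.56%), 1 of 48 higher (2.20%) and 6 of 49 lower (3.73%). The median log2 ratio of the G2/M list was 0.47, -0.25, 0.32 and -0.38, that of the S phase list 0.31, 0.07, 0.15 and 0.01, and that of all counted genes 0.10, -0.06, 0.06 and -0.10. Among the 6 genes were the mitotic kinase gene Aurkb with a log2 ratio of -1.12 (-2.01 to -0.35) from 14 against 277 UMIs and the kinesin gene Cenpe with -1.18 (-1.73 to -0.68) from 33 against 682. None of the 10 counted DNA replication genes, which the study chose in proinflammatory macrophages, passed in any of the 4 comparisons of T lineage cells, which says nothing of macrophages. At the shares of all genes given above, 0 of 10 is also no sign that these genes were steadier than others. Ccne2 was at 84.5, 190.2, 169.8 and 219.5 CPM, lowest in the normocholesterolemic Nrf2flox/flox cells. Set against that library it had 1.17 (0.91 to 1.44) in normocholesterolemic cells labelled Nrf2Cdh5tKO and 1.01 (0.67 to 1.34) in atherosclerotic Nrf2flox/flox cells.

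Some thymocyte genes were lowest in the library labelled atherosclerotic Nrf2Cdh5tKO and others were not. Against atherosclerotic Nrf2flox/flox its log2 ratio was -1.52 (-2.22 to -0.88) for Rag1, -1.13 (-1.51 to -0.76) for Dntt and -1.81 (-2.79 to -0.96) for the thymic homing receptor gene Ccr9. Against normocholesterolemic cells of the same label it was -1.38 (-2.07 to -0.77), -1.16 (-1.54 to -0.82) and -1.58 (-2.54 to -0.75). Of the 3 counted recombination genes 2 were lower in the first comparison, and of 4 counted 2 were lower and 1, Ptcra, was higher in the second. Of all counted genes 3.56% and 3.73% were lower in these comparisons. Of the other 13 genes of thymocyte stage and coreceptors, Ccr9 among them, 1 of 9 and 1 of 10 counted were lower, with medians of -0.47 and -0.44. All rest on 13 cells: Rag1 was found in 6 of them, with 22 UMIs of which 45.5% lay in 1 cell, and Dntt in 8, with 69 UMIs. In the normocholesterolemic Nrf2Cdh5tKO pool Rag1 was found in 78 of 98 cells, with 8.60% of its UMIs in the top cell. Other T cell genes also differed in the 13 cells. Nkg7 had 43 UMIs in 3 of them. It had 4 UMIs in 2 of 48 atherosclerotic Nrf2flox/flox cells and 4 in 3 of 98 normocholesterolemic Nrf2Cdh5tKO cells. Both coreceptors were found in 23.1% of the 13 cells, against 60.4% and 59.2%. Of the cytotoxic and NK list 1 gene was counted in each comparison, and it was lower.

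Many of the largest differences came from single cells. Among the 5 genes with the largest loss under the Nrf2Cdh5tKO label in normocholesterolemic aortas were S100a9, Camp, Ngp, Igha and Ltf, genes of neutrophils and, for Igha, plasma cells. The 4 genes with UMIs on both sides had log2 ratios from -9.53 to -8.18. In the normocholesterolemic Nrf2flox/flox library 98.6% of the 5779 S100a9 UMIs, 99.5% of the 2141 Camp UMIs, 99.3% of the 1218 Ngp UMIs and all 283 Ltf UMIs lay in 1 cell each. With each gene's top cell left out of both libraries S100a9, Camp and Ngp were still past 2-fold and counted as lower, from 82 against 7, 11 against 2 and 9 against 1 UMIs, Camp and Ngp then under the minimum of 50 UMIs used otherwise. The 7 neutrophil and progenitor genes summed to 6858, 20.6, 45.4 and 13.4 CPM in the cycling T lineage cells, with S100a9 the most abundant over all 4 libraries and 1, 1, 2 and 5 of them at 0. The 11 macrophage genes summed to 1140.0, 316, 109 and 309 CPM against 117, 133, 127 and 194 CPM in smooth muscle cells, with Retnla the most abundant in the first (714 CPM). Their part in the differences between libraries was not tested further than by leaving cells out.

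Of the genes that were higher in these comparisons, Nrgn had 89.0% of its 82 UMIs in 1 normocholesterolemic Nrf2Cdh5tKO cell. Ebf1, a B cell factor, had 95.3% of 85 UMIs and the atrial gene Myl4 all 43 UMIs in 1 atherosclerotic Nrf2flox/flox cell. All 52 UMIs of the chemokine gene Ccl5 lay in 1 atherosclerotic Nrf2Cdh5tKO cell, as did 87.3% of Hilpda and 88.7% of Cxcl2. When the cell with the most UMIs of a gene was left out of each library, 88 of 95 and 192 of 203 genes kept their call in the first comparison, 21 of 40 and 100 of 106 in the second, 89 of 127 and 276 of 293 in the third and 17 of 92 and 180 of 195 in the fourth.

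Other genes with large ratios were spread over many cells. Cep41 and Gypc had UMIs in 27 and 31 of 98 normocholesterolemic Nrf2Cdh5tKO cells, against 7 and 9 of 109 normocholesterolemic Nrf2flox/flox cells. The long RNA gene Gm26722 was at 4.03 CPM in the normocholesterolemic Nrf2flox/flox library and at 25.6 CPM under the Nrf2Cdh5tKO label, found in 8 of 109 and 41 of 98 cells, with a log2 ratio of 2.67 (1.58 to 3.95). The histone genes Hist1h2an, Hist1h4c and Hist1h2ai were higher in atherosclerotic than in normocholesterolemic Nrf2flox/flox cells, with log2 ratios of 3.57 (3.28 to 3.87), 2.91 (2.50 to 3.33) and 2.89 (2.42 to 3.39). Hist1h2an had 116, 398, 535 and 116 UMIs in 53 of 109, 75 of 98, 36 of 48 and 10 of 13 cells, so that the normocholesterolemic Nrf2flox/flox library was lowest. More abundant histone genes did not follow this order: Hist1h1b was at 2259, 1714, 2102 and 2217 CPM and Hist1h2ap at 2432, 1628, 2824 and 1563 CPM. Histone genes of these clusters are near-identical in sequence and most of their mRNAs have no poly(A) tail, so that their counts in a 3′ assay are uncertain. Hes6, a relative of the Notch target Hes1, and the cyclin F gene Ccnf had 1 UMI each in the 13 cells labelled atherosclerotic Nrf2Cdh5tKO and 131 and 115 UMIs in 64 and 52 of 98 normocholesterolemic cells of that label.

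Free RNA and doublets bear on the lineage calls. Among 1988 smooth muscle cells 6.89% held a UMI of Rag1 or Cd3, 0.352% of Rag1, 4.68% of Csf1r and 1.01% of Cd79a. Per library the first share was 7.04%, 10.2%, 9.84% and 0.810%, lowest where cycling T lineage cells were fewest. In cycling T lineage cells thinned to 5000 UMIs Csf1r was found in 3.09% (1.34 to 6.0%), against 1.92% in smooth muscle cells, so that cells with T lineage genes and Csf1r are not read as a type of their own. The doublet caller Scrublet marked 306 of 14148 kept cells (2.16%), 4 of 343 cycling leukocytes and none of the 27 cells with T lineage genes and Csf1r. The matrix protein gene Dcn of fibroblasts had a UMI in 92.2% of cycling Csf1r cells and in 85.3% of smooth muscle cells.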

How the data were processed

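The authors aligned the reads to the mouse genome (mm10) and counted them with Cell Ranger 6.1.2, per the submitters' processing notes, and deposited the filtered UMI counts of 31053 genes for each of 4 libraries, which were used as deposited. Cells were filtered and chosen as stated above, and smooth muscle cells (no Ptprc, at least 10 UMIs of Myh11) gave the level of free RNA. UMIs were summed per library and group of cells. Shares have exact Clopper-Pearson intervals, CPM exact Poisson intervals and log2 ratios exact binomial intervals, all at 95% and for counting error only. Limits given as 3 counts of the total are not such intervals and lie below the exact upper limit, which for Foxp3 was 1.37%. Counts of genes past 2-fold used genes with at least 50 UMIs unless stated otherwise, while some ratios of named genes rest on fewer UMIs. With 1 library per group no test between groups was possible. Depth was equalised by thinning cells to 5000 UMIs, and doublets were called with Scrublet in scanpy 1.11.5. Only the calling of genes past 2-fold between libraries was tested on simulated counts. Those counts were drawn per library and not per cell, so that differences resting on single cells were not covered.

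Besides the listed genes, the text names some of the 5 genes with the largest ratio in each direction of a comparison. It also names leading genes of the cycling T lineage cells, from the 10 with the highest ratio and at least 100 UMIs. The members, gene lists and comparisons were chosen with earlier results of these data known. Gene positions are from GENCODE and promoters from RefSeq. Python 3.11.15, numpy 2.4.6, scipy 1.17.1 and pandas 2.3.3 were used. A further part of the treatment of the groups is not reported here.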

Additional observations from a re-analysis of the deposited data

Results flagged for a closer look

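The difference in the cycling share of leukocytes between the library labelled Nrf2Cdh5tKO and the Nrf2flox/flox library was 6.69 percentage points in normocholesterolemic and -9.48 percentage points in atherosclerotic aortas. It drew attention since the signs were opposite. With 1 library per group the difference between both effects was not tested. T lineage cells were 34.8% and 47.0% of leukocytes in the normocholesterolemic pair and 47.5% and 22.6% in the atherosclerotic pair, and moved the same way. Among leukocytes without T lineage genes the cycling shares were 4.06% and 4.48% in the first pair and 5.03% and 3.45% in the second.

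Outside the kept cells, 16 barcodes with more than 6000 genes met the rule for leukocytes, and 15 of them also had at least 3 UMIs of Mki67 and Top2a, 12 of these with T lineage genes. They were 4, 5, 3 and 3 per library. With them the cycling leukocytes numbered 358.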

How the results depend on the processing

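Over 27 results and 21 alternatives 238 values were computed, of which 204 moved by less than the counting interval, or for counts of genes by less than 1.5 times, 34 moved further and 0 reversed. With a minimum of 2 UMIs of Mki67 and Top2a the normocholesterolemic Nrf2flox/flox share of leukocytes was 12.1%, and T lineage cells were 71.5% and cells with Csf1r or Cd79a 31.2% of cycling cells. With a minimum of 5 UMIs the first was 8.48% and T lineage cells 82.7%. Cells chosen by Pclaf and Rrm2 gave 7.79% and 83.8%. Thinned to 5000 UMIs, which left out 2955 cells, and with a minimum of 2 UMIs of Mki67 and Top2a, the share of leukocytes was 23.5% (normocholesterolemic Nrf2Cdh5tKO label), 21.4% and 9.02% (atherosclerotic Nrf2flox/flox and Nrf2Cdh5tKO label), the share of Rag1 cells that were cycling 57.6%, 65.1%, 74.4% and 75.0%, and cells with Csf1r or Cd79a were 17.7%. With lineage from at least 2 UMIs the last was 16.9%, and Dntt alone as T lineage gene gave 69.7%. Chosen after seeing the data were Dntt as a lineage gene and the ways of leaving out cells. With at least 20 UMIs per gene, 203 genes were higher and 378 lower under the Nrf2Cdh5tKO label in normocholesterolemic cells, 135 and 178 in atherosclerotic cells, 285 and 520.0 in atherosclerotic against normocholesterolemic Nrf2flox/flox cells, and 173 higher under the Nrf2Cdh5tKO label, where more genes were counted. Without cells that held Csf1r or Cd79a, 113 genes were lower in the first comparison and 174 in the third. Without each gene's top cell 21 genes were higher in the second and 17 in the fourth. The library labelled atherosclerotic Nrf2Cdh5tKO was lowest in full and thinned counts, but after thinning its interval (5.80 to 13.2%) overlapped that of the normocholesterolemic Nrf2flox/flox library (10.3%, 8.47 to 12.4%). No paired analysis was possible because each group had 1 library. Results for the library labelled atherosclerotic Nrf2Cdh5tKO rest on 24 cycling leukocytes, 13 of them T lineage.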
